A study of Mus with 8 samples.

Results

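The dense clusters of C/EBPβ sites described here were 949 stretches of the mouse genome in which at least 4 C/EBPβ-bound regions lay close together 4 h after adipogenic induction of 3T3-L1 cells. They were chosen by the positions of the 4 h peaks alone. The peaks of the control and the Prep1 down-regulated cells at 4 h were merged wherever they overlapped by 1 bp or more, on chromosomes 1 to 19, and neighbouring merged regions were chained when the gap between them was 12500 bp or less. The chains of 4 or more regions held 4769 of the 27905 merged regions (17.1%). Chains of 2 or 3 held another 10231 regions (36.7%), and 12905 regions (46.2%) had no neighbour within that gap and are called unchained below.

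3T3-L1 is a mouse preadipocyte line that turns into fat cells on hormonal induction. C cells were infected with a lentivirus carrying a scrambled shRNA, and P cells with a pLKO.1-based lentivirus carrying a single Prep1-directed shRNA. Both were selected in puromycin, so P stands for 1 hairpin in 1 selected population. C/EBPβ was immunoprecipitated (antibody C19) at day −2, before induction, and 4 h after the change to medium with dexamethasone, isobutylmethylxanthine and insulin. Times are given as in the labels of the samples; inside the files, the peak names carry the tag 0h in both day −2 lists and 5h in both 4 h lists, and which time is meant could not be settled. The series has 8 samples, a ChIP and an input library for each of the 4 conditions, with 1 of each per group. Without replicates no difference between conditions could be tested. The intervals below are 95% intervals for counting error over regions, which come from the same libraries and are not replicates.

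C/EBPβ is a basic leucine zipper transcription factor and among the earliest regulators of adipogenesis. It binds DNA as a dimer, is present in preadipocytes and is induced and activated within hours of the adipogenic stimulus, before the later factors PPARγ and C/EBPα. Many early adipogenic factors bind near each other in groups of enhancers, and such dense groups are often found in genes with cell type-specific expression. Prep1 is a homeodomain protein of the TALE class that binds DNA with Pbx partners.

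The lists differed in length. On chromosomes 1 to 19 the C list held 827 peaks at day −2 and 13265 at 4 h, and the P list held 1628 and 26031. Because chains were built from both 4 h lists, most depended on P peaks. The P list alone gave 830 chains of 4 or more peaks, which held 16.0% of its peaks. The C list alone gave 183 such chains, with 6.33% of its peaks. When the P list was shortened to as many peaks as the C list, an alternative chosen after seeing the data, 332 chains with 1583 regions were left. Neither day −2 list formed a chain of 4. The largest in either held 3 peaks, and 95.3% of the C and 91.7% of the P peaks at day −2 had no neighbour within the gap in their own list.

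Most of the chains were small. Exactly 4 regions were found in 508 (53.5%), 8 or more in 65 and 10 or more in 19, and the largest held 25. Their span had a median of 18358 bp, from 2908 to 111186 bp, and together they covered 19.1 Mb. Regions inside a chain were separated by a median gap of 3935 bp (quartiles 1419 and 7345 bp), and 728 of the 3820 gaps (19.1%) were under 1 kb. Counting regions under 1 kb apart as 1, also chosen after seeing the data, left 659 chains with 3226 regions. The threshold cut through a continuous range of sizes: 1175 chains held 3 regions and stood just outside it. The widest gap bridged was 12500 bp, and the narrowest left unbridged was 12504 bp.

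**Figure D1:**
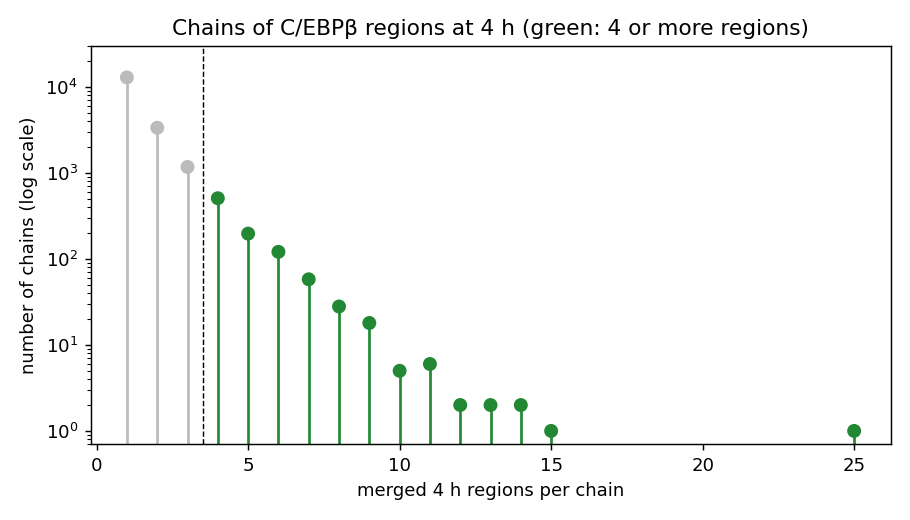
Number of chains (y axis, log scale) by merged 4 h regions per chain (x axis), with the unchained regions at 1 and a dashed line at the limit of 4. Counts fell from 12905 unchained regions through 508 chains of 4 to single chains of 15 and 25 regions.

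The largest chain showed what such a cluster looked like. At chr6:36745381-36856566 (mm9, counted from 1), 25 regions spread over 111186 bp, 24 with a P peak and 10 with a C peak at 4 h. No region had a peak at day −2 in either kind of cell. Fold enrichment, the ChIP fragments over the local background at the summit, each with 1 added by the peak caller, ran from 4.99 to 27.0 in P (median 11.1) and from 5.73 to 22.7 in C (median 7.46). The strongest region was the same in both, chr6:36780418-36780932, at 22.7-fold in C and 27.0-fold in P. Across the rest of the stretch the lists parted. Region chr6:36840367-36840642 reached 21.5-fold in P and had no C peak, whereas chr6:36842109-36842447, its next neighbour, was enriched 12.6-fold in C and 10.7-fold in P. There the background was 1.75 times the genome background in C and 4.34 times in P, and P had the more fragments at the summit, 31 against 22. Such backgrounds are few input fragments, since the genome background at 4 h was 0.476 fragments in C and 0.461 in P. At the 9 regions with both peaks the median log2 of P over C was 1.01.

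The next largest chains carried more C peaks. The 15 regions of chr11:86383746-86452829 included 12 with a C and 14 with a P peak, and the region chr11:86417259-86417615 was the strongest in both lists, at 44.1-fold in C and 53.0-fold in P. That same region already had a peak at day −2, 11.8-fold in C and 26.3-fold in P. Regions chr11:86385015-86385296 and chr11:86385465-86385675 had a day −2 peak in P cells only, at 9.59-fold and 11.2-fold. Around them lay regions with 4 h peaks alone, such as chr11:86400396-86401259 with 5.68-fold in C and 20.03-fold in P, where the input background was 4.18 times the genome background in C and 1.73 times in P and the summits held 16 and 35 fragments. Thus a site occupied before induction stood among sites that had a peak only after it.

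The other 4 of the 6 largest chains varied in the same ways. The chain chr9:22965841-23029531 had 14 regions, 8 with a C and 13 with a P peak, and none at day −2. At chr14:66300902-66381254, P peaks were found at all 14 regions and C peaks at 11, again with none at day −2. At chr2:72821591-72887660, 13 regions had a P peak and 6 a C peak. Its strongest region in both lists, chr2:72885072-72885536, was at 35.4-fold in C and 24.6-fold in P, with day −2 peaks of 13.3-fold in C and 31.9-fold in P. At this region the P input background was 10.9 times the genome background and the C one 3.77 times, and the summit held 147 fragments in P and 98 in C. The chain chr15:50483693-50542476 also had 13 regions, 12 with a P and 7 with a C peak. Its region chr15:50527051-50527721 rose highest, to 28.4-fold in C and 49.4-fold in P, and had a day −2 peak in P cells of 8.22-fold. In chr15:50496977-50498147, day −2 peaks were present in both, 7.65-fold in C and 22.3-fold in P, and the 4 h values were 17.7 and 30.5.

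**Figure D2:**
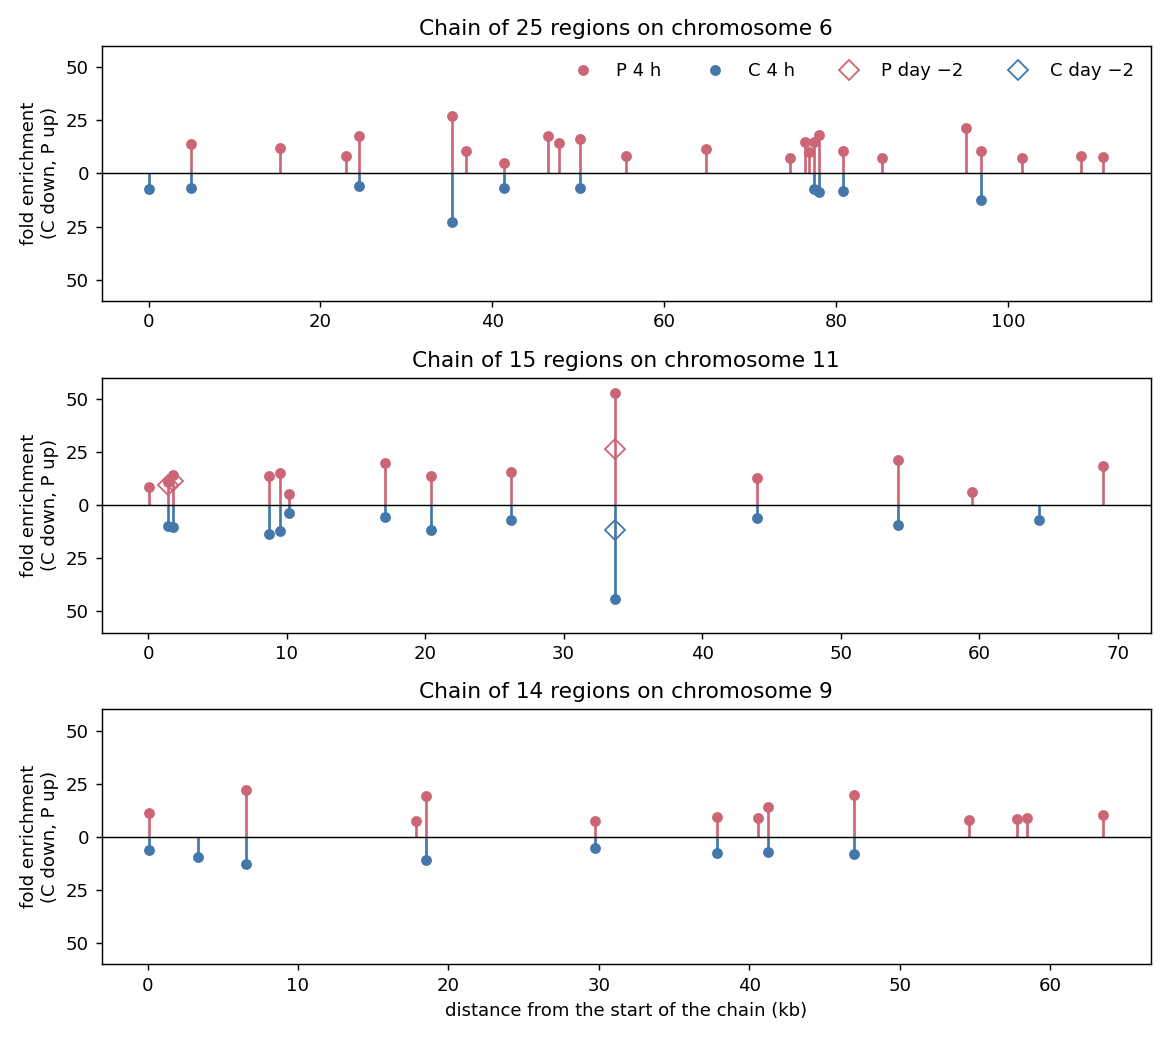
Fold enrichment at each merged region (y axis, P upwards and C downwards from 0) by distance from the start of the chain in kb (x axis), for the chains of 25, 15 and 14 regions on chromosomes 6, 11 and 9; filled points are 4 h peaks and open diamonds day −2 peaks. P peaks outnumber C peaks in each, and day −2 peaks occur only in the chromosome 11 chain, at 3 regions in P and 1 in C.

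Within a chain the regions were far from equal. Over the 839 chains with at least 4 P peaks, the strongest P peak had a median of 3.32 times the fold enrichment of the weakest (quartiles 2.34 and 4.62). Over the 214 chains with at least 4 C peaks it was 2.57 times. Such a ratio exceeds 1 by construction, and it was not computed for sets of unchained regions. Fold enrichment of neighbouring regions in P cells was close to uncorrelated at every spacing. Pearson's r was 0.027 over 1609 pairs of neighbours under 1 kb apart and 0.0054 over 2988 pairs from 6000 to 12500 bp apart, a description over pairs of 1 library. Strength differed little by position in the chain. The first and last regions of the chains had a median P fold enrichment of 11.2 and the inner regions 11.4, and C values were 9.35 and 9.36. A day −2 P peak was found at 5.69% of the first and last and at 7.14% of the inner regions, and a C peak at 3.21% and 3.24%.

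The 4 h values of the members are a description, since the members were selected on the positions of these same peaks. Among the 4769 regions, 2420 (50.7%, 49.3 to 52.2) had a C peak, beside 47.2% of all merged regions, and 4523 (94.8%) a P peak, beside 93.3%. Both lists had a peak at 2174 (45.6%), beside 40.5%. P cells alone had a peak at 2349, which is 49.3% of the members (47.8 to 50.7) beside 52.8% of all merged regions and 54.8% (54.0 to 55.7) of the unchained. C cells alone had a peak at 246, or 5.16% beside 6.72% of all regions and 7.51% of the unchained. These shares lay near those of all regions, and the rule used the same lists. The share with P alone was lower than in unchained regions, by a difference of -5.57 percentage points (-7.22 to -3.91), and it was higher on only 2 of the 19 chromosomes when each was taken by itself. Such shares also depend on the lengths of the lists, of which the C list was the shorter, and with lists of equal length the difference was -4.22 (-6.39 to -1.93).

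By chain, P peaks outnumbered C peaks in 832, C peaks outnumbered P peaks in 34 and the numbers were equal in 83. The median chain had P peaks at 4 regions and C peaks at 2. P peaks covered all regions in 741 chains, C peaks in 51 and both lists in 27. No C peak at all was called in 68 chains. All these counts depend on the lengths of the lists: of all merged regions, 52.8% had P alone and 6.72% had C alone. The counts were not compared with sets of unchained regions. The largest of these, chr8:80545451-80578009, had 8 regions with P fold enrichments of 4.99 to 14.5. The chain chr15:11109683-11141287, also of 8 regions, ranged from 4.99 to 26.0, and 3 of its regions reached 18.9-fold or more without a C peak. The 6 regions of chr7:119583433-119613650 lay between 6.75 and 15.3. None of these 3 had a day −2 peak. The opposite case was seen once: chr2:147459466-147471796, with 4 C peaks of 7.78 to 8.10-fold and no P peak.

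At the other end were chains where C cells had a peak at most of the regions. In chr13:39374078-39418085, 7 of 8 regions had a C peak and 7 a P peak, with C values of 5.01 to 16.1 and P values of 6.10 to 17.3. At its first region, chr13:39374078-39374543, fold enrichment was higher in C, 16.1 against 13.98, over a background of 1.16 times the genome background in C and 2.17 times in P, while the fragments numbered 24 in C and 27 in P. In chr6:115340023-115385982, 8 of 10 regions had a C peak. This was among the strongest of the large chains, with C values up to 38.2 and P values up to 61.7, both at chr6:115371597-115372173, and medians of 16.1 and 19.8. Its day −2 peaks were found in P cells only, at chr6:115362457-115362831 (12.9-fold) and chr6:115370742-115371402 (8.08-fold), and at both the C cells had a 4 h peak, of 20.8-fold and 15.05-fold. The strongest region of the chain had none.

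Where both lists had a peak, P values were mostly the higher. Of the 2174 shared members, 1843 (84.8%) had the higher fold enrichment in P, beside 82.02% of all shared regions. P was at least 1.5-fold C at 1212 of them (55.7%, 53.7 to 57.8), beside 51.6% of all shared regions and 49.4% of shared unchained regions. C was at least 1.5-fold P at 55 (2.53%), beside 3.59% of all shared regions and 4.20% of the unchained. The median log2 of P over C was 0.68 (0.64 to 0.70) in members and 0.58 (0.56 to 0.60) in unchained regions, a difference of 0.10 (0.06 to 0.13). By fragments at the summit, before division by the background, the medians were 0.74 (0.70 to 0.76) and 0.69 (0.66 to 0.71), a difference of 0.049 (0.0081 to 0.084). Of the 860 chains with a shared region, 803 (93.4%) had a median above 0. Single shared unchained regions were higher in P at 80.6%. Pooling regions into a median raises such a share by itself, and medians over sets of unchained regions were not taken. Within a chain, however, P over C varied more than between chains. In the 670 chains with 2 or more shared regions, log2 P/C had an SD of 0.64 within chains and 0.15 between them, an intraclass correlation of 0.049. For fragments the SDs were 0.50 and 0.22 and the correlation 0.16. Over the 4861 shared unchained regions the SD of log2 P/C by fold enrichment was 0.67, near that within chains. Counting error was not separated from these spreads.

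Members were also somewhat stronger than unchained regions. Their median fold enrichment was 11.4 (10.99 to 11.5) in P, against 10.5 (10.5 to 10.6) for unchained regions, a ratio of 1.08 (1.05 to 1.10), and it was higher on each of the 19 chromosomes. In C it was 9.36 (9.11 to 9.52) against 9.02 (8.87 to 9.07), a ratio of 1.04 (1.01 to 1.06), higher on 12 of 19. The interval of the C ratio reached below 1 at a gap of 6250 bp (0.982), for chains of 6 or more (0.985) and with peaks merged by summits within 100 bp (0.993). At shared regions the P median was 16.5 against 14.9, and such regions also made up more of the P peaks in members, 2174 of 4523 against 4861 of 11936. Among regions with P alone, the members were lower, at 8.99 (8.90 to 9.16) against 9.32 (9.20 to 9.46). Merged regions had a median width of 265 bp in members and 238 bp in unchained regions. Such a width spans both peaks where both lists had one, which was at 45.6% of the members and 37.7% of the unchained.

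The members were also described by group of 4 h strength. All merged regions were split into 5 equal groups by their highest −log10 p at 4 h. The strongest group, at 38.9 or more, took in 24.9% of the members and 17.4% of the unchained regions. Within that group log2 P/C was 0.91 in members and 0.91 in unchained regions, and in the next it was 0.62 and 0.64. In the weakest it was 0.14 (0.03 to 0.23) and 0.09 (-0.02 to 0.14). These values bear little on P over C, since the highest −log10 p at a shared region was mostly that of P itself, and log2 P/C climbs across the groups in members and unchained regions alike. The share with P alone was 10.19% and 12.6% in the strongest group and 77.6% and 75.04% in the weakest.

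The rule that chose the members did not use the day −2 lists, although it was set with earlier results of these data known. A C peak before induction was found at 154 members, or 3.23% (2.76 to 3.77), beside 2.88% of all merged regions and 2.60% (2.34 to 2.89) of the unchained. A P peak was found at 313, or 6.56% (5.89 to 7.30), beside 5.77% of all regions and 5.22% (4.85 to 5.62) of the unchained. Both shares lay near those of all regions. The ratio of members to unchained was 1.24 (1.03 to 1.496) in C and 1.26 (1.10 to 1.43) in P, and members had the higher share on 14 of 19 chromosomes in each. In C the interval reached below 1 under 4 alternatives other than a reweighting to 4 h strength, with a lowest bound of 0.880. In both kinds of cells before induction, 107 members had a peak (2.24%, beside 1.83% of all regions and 1.53% of the unchained), and 104 were in all 4 lists (2.18%, beside 1.80% and 1.51%).

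The day −2 shares went with the strength at 4 h. In the strongest group 10.6% of the members and 10.9% of the unchained regions had a C peak at day −2, and 22.1% and 23.5% had a P peak. In the weakest group the shares were 0.112% and 0.221% in C and 0.225% and 0.184% in P. When the unchained regions were reweighted to the strength of the members over 10 equal groups of −log10 p, the ratios changed side, to 0.895 (0.743 to 1.08) in C and 0.894 (0.789 to 1.01) in P. Over the 5 groups above they were 0.949 (0.788 to 1.14) and 0.944 (0.832 to 1.07). Over unchained regions of like 4 h strength no excess was thus detectable. Of the day −2 peaks, 18.6% in C and 19.3% in P fell in members, which made up 17.1% of all merged regions. Unchained regions held 40.6% and 41.5%, beside 46.2% of all merged regions.

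**Figure D3:**
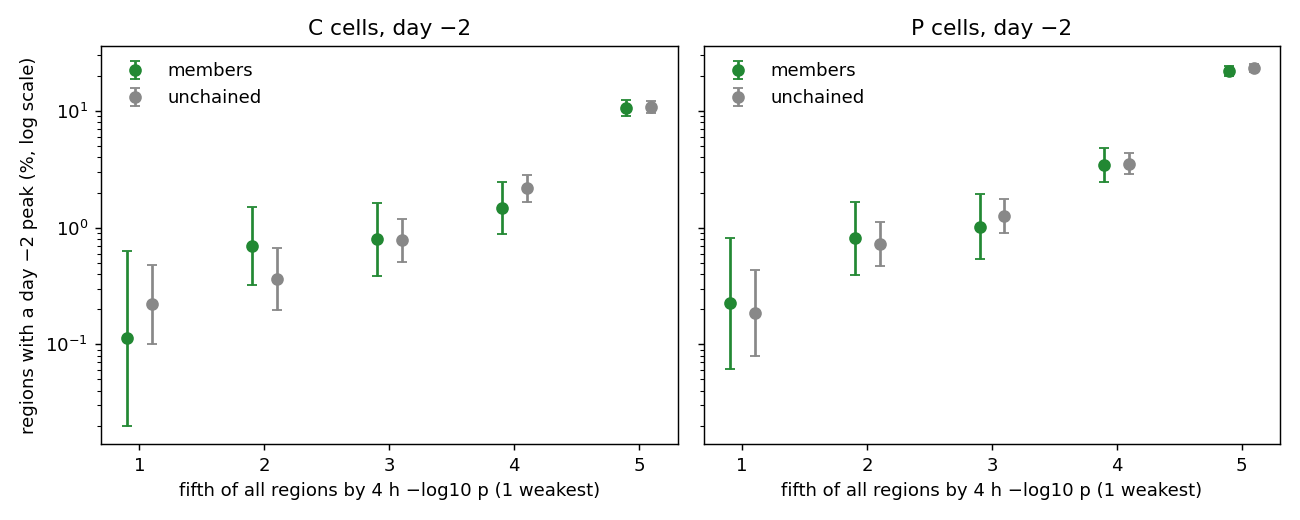
Share of regions with a day −2 peak in percent (y axis, log scale) by group of 4 h −log10 p, from 1 for the weakest to 5 for the strongest (x axis), for C cells (left) and P cells (right), with members in green, unchained regions in grey and bars for 95% Wilson intervals. Shares climbed to 10.6% and 22.1% of the members in the strongest group, and the intervals of members and unchained regions overlapped in every group.

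No day −2 region was present in 655 of the 949 chains (69.0%). Day −2 peaks were rare everywhere, at 2.88% of all merged regions in C and 5.77% in P. Many chains would therefore hold none whatever their density, and the number was not compared with sets of unchained regions. A C region was present in 140 chains (14.8%) and a P region in 255 (26.9%), and of these 128 and 207 had just 1. A chain held at most 3 C and 4 P regions of day −2. Few day −2 peaks lay off the 4 h regions anywhere, 23 of 827 in C (2.78%) and 16 of 1628 in P (0.983%), and of these none in C and 1 in P lay inside the span of a chain. The sites bound at day −2 were often the strongest of their chain at 4 h, also in chains with 4 or more 4 h peaks of the same cells, where the rank could vary most. In such chains 61 C regions of day −2 also had a 4 h C peak, and 30 of them (49.2%, 37.1 to 61.4) were the strongest C peak of their chain, compared with 21.4% of all 999 C regions there. In P it was 172 of 289 (59.5%, 53.8 to 65.01), compared with 19.9% of 4214. In chains with at least 2 such peaks the shares were 60.7% against 32.2% in C and 59.8% against 20.9% in P. Day −2 peaks went with 4 h strength in unchained regions too. From the weakest to the strongest group their share there rose from 0.221% to 10.9% in C and from 0.184% to 23.5% in P. The rank within a chain was not compared with sets of unchained regions, so it is not shown to be a trait of chains.

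The 4 chains named for regions bound in both kinds of cells before induction gave examples. The first held 3 such regions and the others 2, a number that further chains also reached, such as chr2:50542838-50547331. In chr5:104798669-104837222, 3 of 9 regions had day −2 peaks in both. At chr5:104821827-104822149 the values were 13.9 in C and 31.4 in P at day −2, then 32.0 and 39.9 at 4 h, and this was the strongest C peak of the chain. At chr5:104836898-104837222 they were 10.99 and 14.4, then 22.6 and 42.1. At chr5:104809590-104809916 they were 10.1 and 7.97, then 23.1 and 21.0, the latter with 41 fragments over a background of 1.71 times the genome background in C and 62 over 4.34 times in P. The strongest P peak, chr5:104803070-104803730 at 43.1-fold, had no peak at day −2 in either list.

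In chr15:59479960-59505849 the pair of regions bound before induction stood at the ends of the chain. The first, chr15:59479960-59480238, had 14.3 in C and 10.5 in P at day −2 and 32.4 and 45.5 at 4 h. The last, chr15:59505524-59505849, had 10.6 and 10.05, then 26.1 and 66.4, the highest P value of the chain. The 4 h background there was 4.18 times the genome background in C and 1.52 times in P, and the summits held 77 and 112 fragments. Of the 7 regions between them 6 had a P peak alone, of 8.08 to 18.0-fold. In chr17:71627135-71650053, neighbouring regions chr17:71649245-71649553 and chr17:71649751-71650053 had day −2 peaks in both. The first of them was at 4.68-fold in C and 10.5-fold in P before induction and at 31.4 and 18.97 at 4 h, with 56 fragments in each at 4 h. The second was at 28.2-fold in C and 28.4-fold in P before induction and at 46.6 and 54.4 at 4 h. In chr19:34481777-34525787 it was regions chr19:34498308-34498726 and chr19:34516646-34516965, with day −2 values of 6.26 and 12.0 in C and of 7.35 and 21.9 in P. The latter rose to 29.6 in C and 36.9 in P, the maximum of that chain in both lists.

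At day −2 the enrichment itself differed little between members and unchained regions. The median was 7.68 (7.37 to 8.01) in C members and 8.001 (7.62 to 8.24) in C unchained regions, and 10.3 (9.56 to 10.5) and 9.70 (9.47 to 9.99) in P. These intervals overlapped.

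Chain size went with some of these values. The median log2 P/C was 0.58 (0.56 to 0.60) at unchained regions and 0.59 (0.56 to 0.62) in chains of 2, then 0.69 (0.64 to 0.73) in chains of 3, 0.64 (0.58 to 0.70) in chains of 4 and 0.69 (0.66 to 0.74) in chains of 6 or 7. The share with P alone was 54.8% at unchained regions, 52.2% (51.03 to 53.4) in chains of 2, 50.98% in chains of 3 and 48.1% (45.2 to 50.97) in chains of 6 or 7. The day −2 share in P was 5.22% at unchained regions, 5.83% in chains of 2, 6.55% in chains of 3, 6.15% in chains of 4 and 7.61% (4.59 to 12.4) in chains of 11 to 25. In C it was 2.60% at unchained regions, between 2.92% and 3.65% in every group of chains from 2 to 10 regions, and 2.17% (0.849 to 5.46) in the 14 chains of 11 to 25. The median fold enrichment in P was 11.5 in chains of 3, 10.99 in chains of 4 and 11.02 in chains of 11 to 25, and in C it was 9.45, 9.40 and 8.55. The interval of every size from 4 upwards overlapped that of chains of 3, so no step in fold enrichment or day −2 binding was detectable at the limit of 4.

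**Figure D4:**
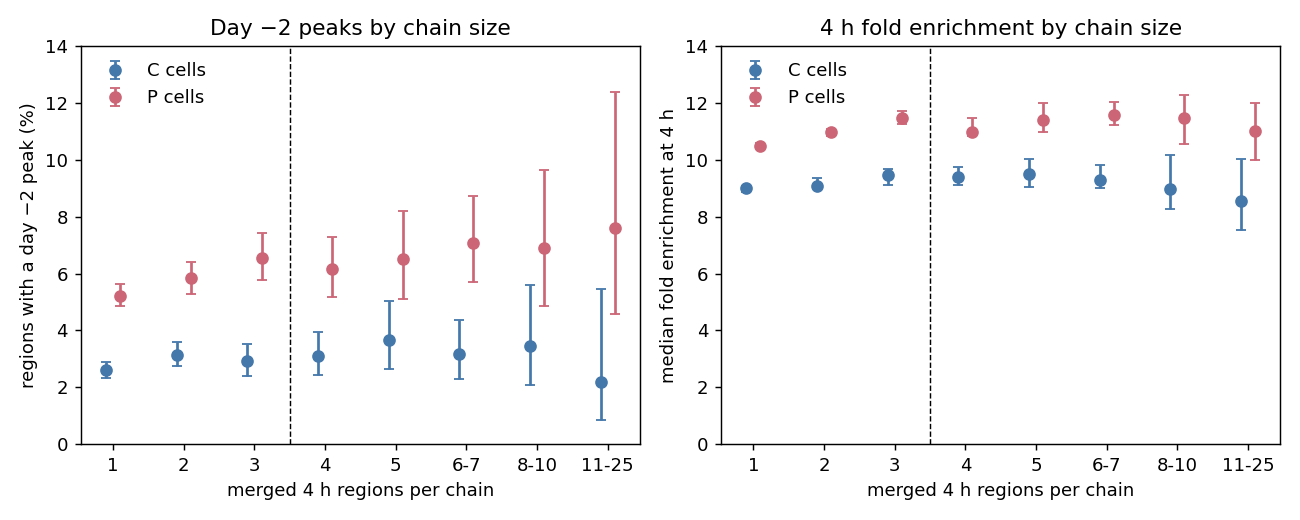
Share of regions with a day −2 peak in percent (left) and median 4 h fold enrichment (right) by merged 4 h regions per chain (x axis), for C and P cells, with bars for 95% intervals and a dashed line at the limit of 4. In P the share was 5.22% at unchained regions and 6.15% in chains of 4, and no step appeared at the dashed line.

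Neighbouring regions tended to share the C peak. Among regions whose left neighbour lay 1000 to 3000 bp away, 57.5% (54.5 to 60.5) had a C peak at 4 h if that neighbour had one and 44.6% (41.7 to 47.6) if it had none. Under 1 kb the shares were 53.7% and 43.5%. From 6000 to 12500 bp they were 51.4% and 46.1%, just beyond the chain gap, from 12500 to 50000 bp, 49.95% and 45.8%, and from 50000 to 200000 bp, 46.4% and 44.6%. Over 200000 bp the shares were 43.8% and 40.3%, so from 1000 bp on the split narrowed up to 200000 bp and was wider again past it. At day −2 in P the shares were 10.97% (6.96 to 16.9) and 6.31% (5.32 to 7.48) at 1000 to 3000 bp and 5.50% and 6.34% from 6000 to 12500 bp, and over 200000 bp they were 8.57% (4.57 to 15.5) and 3.73% (3.04 to 4.57). How alike neighbours were in P over C depended on the measure. For log2 P/C of fold enrichment Pearson's r was 0.086 over 378 pairs under 1 kb apart, 0.00060 over 470 pairs at 1000 to 3000 bp, 0.059 over 627 pairs from 6000 to 12500 bp and 0.12 over 301 pairs more than 200000 bp apart. For the log2 ratio of fragments at the summit the values over these pairs were 0.25, 0.086, 0.11 and 0.12. The pairs come from the same libraries, and peaks under 1 kb apart can share fragments.

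**Figure D5:**
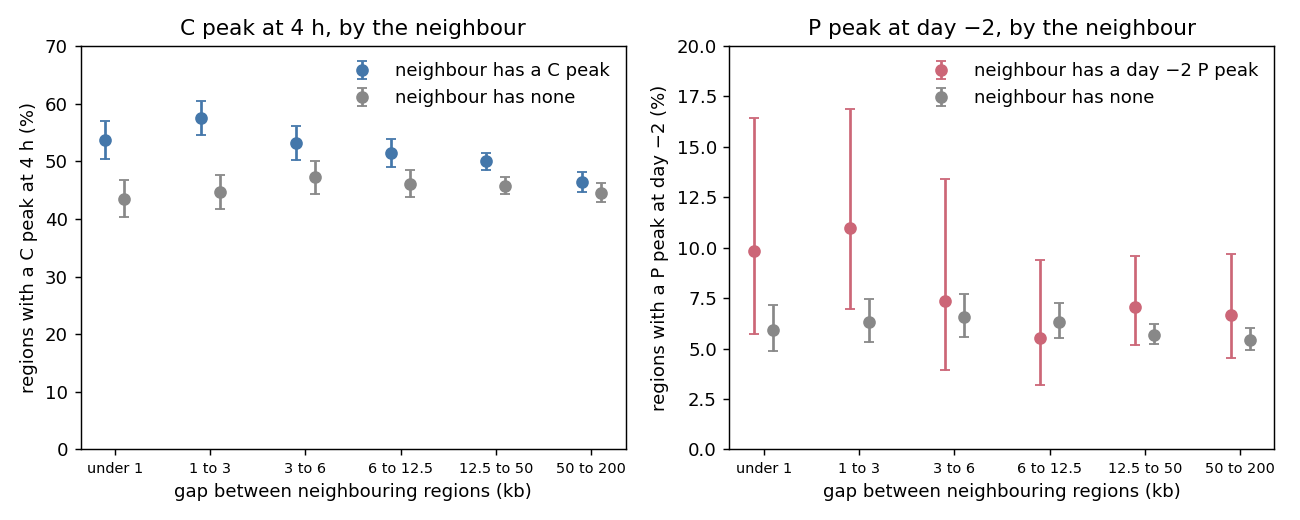
Share of regions with a C peak at 4 h (left) and with a P peak at day −2 (right), in percent, by the gap to the left neighbour in kb (x axis), split by whether that neighbour had such a peak, with bars for 95% Wilson intervals. For C peaks the split was 57.5% against 44.6% at 1 to 3 kb and 46.4% against 44.6% at the widest gap shown.

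Clusters were spread over all 19 chromosomes. The share of merged regions that belonged to chains of 4 or more ran from 11.2% on chromosome 14 to 23.5% on chromosome 6 and 24.1% on chromosome 19. Over the 19 chromosomes it went with the density of merged regions per Mb (Pearson's r 0.77, Spearman's rho 0.70) and with the share of regions of raised input (0.76 and 0.67), a description of these libraries. Under a fixed gap a higher density by itself raises the share in chains. Density and the share of raised input also went together (0.58 and 0.62), and they were not separated.

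Input moved with membership. The local background behind a peak, recovered from its fold enrichment and p-value and set against the genome background, was at least 3 times that level in 1 of the 4 h lists or both at 28.3% (27.0 to 29.6) of the members, 23.04% of all merged regions and 20.9% (20.2 to 21.6) of the unchained. The median was 2.09 in C and 2.17 in P in members and unchained regions alike. The genome background at 4 h was only 0.476 fragments at a summit in C and 0.461 in P, so raised input can mean very few input fragments. The values moved in coarse steps, with 2.09 and 4.18 recurring in C and 2.17 and 4.34 in P. Small differences in this background are therefore not well measured. At least 1 region of raised input was present in 706 chains, and in 18 every region was raised. Without such regions 439 chains with 2078 regions remained, in which the share with P alone was still below that of unchained regions (-4.14 percentage points, -6.46 to -1.84) and the median P fold enrichment still above (ratio 1.07). The day −2 ratios were 1.18 (0.880 to 1.57) in C and 1.30 (1.07 to 1.58) in P.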

How the data were processed

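C/EBPβ ChIP and matched input DNA from 3T3-L1 cells were sequenced on Ion Torrent, in 4 conditions. Per the labels and the methods of the study, the authors aligned reads to mm9 with Bowtie 0.12.8, kept uniquely mapped reads without duplicates, sampled every library down to the same number of mapped reads with SAMtools 1.3.1 and called peaks against input with MACS2 2.0.10.20131028. The names and versions are those of the submitters' processing notes. The depth of each library beyond this is unknown, and peaks were called once per condition. The deposited peak lists give the fold enrichment (a ratio) and the −log10 p at each summit, from a p-value limit of 5 on that scale. The −log10 q was not used in any comparison, nor was the integer score.

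Peaks of chromosomes 1 to 19 were merged and chained in Python (3.11.15) using numpy 2.4.6 and pandas 2.3.3. Members and lists were chosen with earlier results of these data known. Shares have Wilson intervals, ratios of shares score intervals and medians order-statistic intervals (scipy 1.17.1, statsmodels 0.14.6), at 95%; the interval for a ratio or difference of medians combines those of both medians. Figures were drawn with matplotlib 3.10.9. A region counted as bound at day −2 when a day −2 peak overlapped it by 1 bp or more. Fragments and local background at each summit were recovered from fold and p together, with the count of 1 that MACS2 adds above and below the line. For 100% of the peaks a whole number of fragments gave the deposited −log10 p to within 0.01. The recovery and the chaining were tested on simulated data. Raised input means at least 3 times the genome background. Chains were named by rule: the 6 with most regions, the 4 with most regions bound at day −2 in both C and P, the 3 largest with no C peak, and the 3 of 8 or more regions with the highest share of C peaks. A chain with no P peak was named outside that rule, after its values were seen. Further chains, not named, tied with the last of the 4 at 2 regions bound in both at day −2. Alternatives changed the gap, the chain size, the peak threshold, the merging, the overlap with day −2, the measure, raised input, 4 h strength, list length and close neighbours. No mm9 sequence or annotation was used here, so chains are given by coordinates, without gene names.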

Additional observations from a re-analysis of the deposited data

Results flagged for a closer look

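The input libraries, which enter the comparisons only as background, stood apart between P and C at 6 chains, each with at least 2 peaks in both 4 h lists. The median input background of a chain was taken over its regions with a peak in that list, so the C and P medians could cover different regions. At chr8:58748553-58771377 the median input background was 6.51 times the genome background in P and 1.37 times in C. At chr10:107338456-107385478, a chain of 11 regions, it was 10.9 in P and 2.40 in C. At chr10:116581756-116589520 it was 13.3 in P and 4.18 in C, at chr10:116630451-116647041 it was 14.01 in P and 4.49 in C, and at chr10:117540327-117558943 it was 10.95 in P and 3.37 in C. At chr12:34857900-34879317 the C value was the higher, 4.18 against 1.16. This C median came from 2 C peaks, and the P median of the chromosome 8 chain from 3 P peaks. Both are backgrounds of few input fragments, since the genome background at 4 h was 0.476 fragments in C and 0.461 in P. They are therefore less sure than the P values of the chromosome 10 chains. By these medians, P and C fold enrichments at each of the 6 chains were taken over unlike backgrounds. Chains with 1 C peak were not listed, and some were as unlike. At chr10:107052569-107075475 the medians were 9.52 in P and 1.99 in C. At chr8:105035506-105060241 they were 1.66 in P and 6.27 in C.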

How the results depend on the processing

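Of 73 values under 14 alternatives, 54 stayed (a count within 1.5 times the one reported, any other value on the same side and inside its reported interval), 15 moved and 4 reversed. The reversals were the day −2 ratios of members to unchained regions, 0.895 in C and 0.894 in P after reweighting to 10 groups of 4 h strength, and 0.949 and 0.944 over 5 groups. The number of chains followed the rule: 394 chains with 1796 regions at a gap of 6250 bp, 1720 with 10245 at 25000 bp, 2124 with 8294 for 3 or more regions, 244 with 1752 for 6 or more, and 439 with 2078 without regions of raised input. An equal list length gave 332 with 1583. By fragments, log2 P/C of members exceeded that of unchained regions by 0.049. Equal length, fragments, the 5 groups and joining regions under 1 kb apart were chosen after seeing the data. Measured by −log10 p, the ratio of medians of members to unchained was 1.08 in C and 1.16 in P. Apart from the reweightings, the day −2 ratio stayed above 1 under every alternative run, but its interval in C reached below 1 at a gap of 25000 bp (0.979), for 6 or more regions (0.911), without raised input (0.880) and with regions under 1 kb apart counted as 1 (0.995). The ratio of median C fold enrichment at 4 h likewise reached below 1 at a gap of 6250 bp (0.982), for 6 or more regions (0.985) and with summits within 100 bp (0.993). The cause was not tested. No paired analysis was possible because each group has 1 sample. The intervals treat regions as independent and cover counting error only, so they are too narrow for a difference between conditions. A missing peak means that it did not pass the p-value limit in that library, not that binding was absent.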
